A study of Mus musculus with 106 samples.

Results

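Interferon-stimulated genes are the genes whose transcription is switched on when a cell senses interferon. The 59 studied here were taken as a named list, out of 21940 genes examined, and each was read for 2 histone marks at its promoter, defined as 1000 bp either side of any annotated start site in the GRCm38 mouse genome. H3K27ac, acetylation of lysine 27 on histone H3, marks promoters and enhancers in use, and H3K4me3, trimethylation of lysine 4, marks the start sites of genes that are active or ready to be. Chromatin immunoprecipitation with sequencing gave 35 peak lists for each mark, 70 in all.

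All cells came from C57BL/6J mice, 12 to 14 weeks old when they were assigned to a group, either control or made diabetic with streptozotocin, a toxin of the insulin-producing beta cell, and kept diabetic for 6 weeks. The cells called HSC were bone marrow depleted of cells bearing CD3, CD4, B220, Ter119 or Gr1, so they are an enriched mixture of stem and progenitor cells and not a sorted stem cell. Bone marrow-derived macrophages (BMDM) were grown from the same kind of marrow for 7 days in medium from L929 cells with 5 mmol/L glucose, whether the donor was diabetic or not. They were then left in medium or stimulated for 16 h with lipopolysaccharide (LPS) at 100 ng/mL and interferon-γ (IFN-γ) at 10 ng/mL. Each of the 6 groups, control or diabetic by HSC, unstimulated BMDM or stimulated BMDM, had 6 libraries per mark, except diabetic unstimulated BMDM, which had 5. The study's methods count n as individual animals, and the labels number the replicates without naming the mouse.

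As background, interferons bind receptors that activate transcription factors in the cytoplasm. Those set off by type I interferons bind the interferon-stimulated response element (ISRE) in promoters, and those set off by IFN-γ bind the gamma-activated site (GAS). LPS makes macrophages produce interferon-β, so a macrophage given LPS and IFN-γ receives both kinds of signal. Many of the genes then switched on block virus replication, and others attack the vacuoles in which bacteria and parasites live.

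Because peaks were called in each library separately, signal was compared by rank: the peaks of a list were ordered by their −log10 p, and a promoter took the place of the best peak touching it, so that a low rank number means a strong peak. A promoter was called occupied when any peak touched it and held when that peak was among the first 10000. The promoter score, log2(10000/rank) with 0 for a promoter that was not held, rises by 1 each time the rank number is halved. The promoter percentile is the place of the promoter among all protein-coding genes of its library, from 0 for no peak to 100. All genes with no peak count below any gene with one, and 56.8% to 73.6% of genes were occupied in an H3K27ac library. Even the weakest peak therefore stands well above 0, and a change between no peak and a weak peak is a large step in percentile.

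The promoter sequences are shown because they carry both elements, and because an arrangement shared by several of these genes is rare elsewhere. RefSeq promoter windows in the GRCm38.p6 build, from 250 bases before to 50 bases after the start, were matched for 45 of the 59 genes. The ISRE core GAAANNGAAA, searched on both strands, was present in 26 of these 45 (57.8%) against 3.99% of the 27025 genes with a window. The GAS core TTCNNNGAA, which reads the same on both strands, was present in 15 (33.3%) against 9.55%. Both were present in 10 of the 45 (22.2%) against 0.614% of all genes, and neither in 14 (31.1%) against 87.1%. In 4 immunity-related GTPase genes the cores lie in 1 arrangement, a GAS core, 2 bases and an ISRE core, which was found in 5 of all 27025 promoters (0.0185%); the other gene is the predicted gene Gm12185. The capitals mark the cores, and each sequence reads 5′ to 3′ on the strand of its gene.
Igtp, chr11:58199491-58199551, plus strand: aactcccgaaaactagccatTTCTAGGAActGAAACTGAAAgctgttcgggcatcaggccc
Irgm2, chr11:58214882-58214942, plus strand: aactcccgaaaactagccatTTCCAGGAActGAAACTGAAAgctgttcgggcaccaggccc
Tgtp1, chr11:48992294-48992354, minus strand: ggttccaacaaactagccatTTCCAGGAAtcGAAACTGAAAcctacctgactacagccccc
Tgtp2, chr11:49064253-49064313, minus strand: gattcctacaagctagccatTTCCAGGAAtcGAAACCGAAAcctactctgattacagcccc

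Other genes that the results turn on carry the cores in other arrangements. Irgm1 and Gbp7 are shown because they were among the members with the largest H3K27ac differences after stimulation; the promoter of Irgm1 has overlapping ISRE cores, and that of Gbp7 has 2 GAS cores upstream of an ISRE core on the opposite strand. Ifit1, Isg15 and Gbp2 are shown because they hold matches to the ISRE core and yet were held by H3K27ac in no library.
Irgm1, chr11:48871421-48871470, minus strand: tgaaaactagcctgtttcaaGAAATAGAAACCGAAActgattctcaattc
Gbp7, chr3:142530210-142530312, plus strand: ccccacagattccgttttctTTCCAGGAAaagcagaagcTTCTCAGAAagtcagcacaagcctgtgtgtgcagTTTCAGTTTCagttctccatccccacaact
Ifit1, chr19:34640765-34640833, plus strand: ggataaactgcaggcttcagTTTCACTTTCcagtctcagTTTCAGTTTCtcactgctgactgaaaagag
Isg15, chr4:156200855-156200916, minus strand: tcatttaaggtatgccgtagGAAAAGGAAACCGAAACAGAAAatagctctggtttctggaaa
Gbp2, chr3:142620584-142620633, plus strand: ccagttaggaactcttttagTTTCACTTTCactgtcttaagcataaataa
A match to these letters is a description of the sequence and not of binding, and no match says only that the letters are not in the window.

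The libraries differed in ways that bear on every result. A list held 13730 to 277213 peaks, with a median of 110154, and the read totals behind the lists are not in the files. The share of all protein-coding promoters that were held was steadier, at 32.3% to 44.8% of genes. Labels were checked against marker genes by H3K27ac. Cd14, the LPS co-receptor of macrophages, was higher in unstimulated BMDM than in HSC of control mice (2.01 ± 0.672 on the score scale, adjusted p = 0.0401) and was not called in diabetic mice. Myb, a progenitor transcription factor, was lower in control and in diabetic mice (adjusted p = 2.81e-05 and 0.000449). In H3K4me3 the summed score of stem and progenitor markers had medians of 6.35 in control HSC and 7.42 in control unstimulated BMDM. In diabetic cells the medians were 7.46 and 6.48, so these markers did not separate the cell states in that mark. The macrophage markers had H3K4me3 medians of 1.42 and 3.12 in control and 1.79 and 5.76 in diabetic cells. Neutrophil markers were held in no library, and B cell markers in no H3K27ac library, whereas in H3K4me3 up to 2 of the 4 B cell markers were held. Erythroid markers held by H3K27ac numbered 0 to 4 per library, with a median of 1. They reached 4 in diabetic and 3 in control HSC. At most 1 T cell marker was held in any H3K27ac library. Stimulation markers did not separate the groups. Cxcl9 had no H3K27ac peak in any BMDM library, and Il6 had none in the 11 unstimulated libraries and a peak in 4 of 6 control and 2 of 6 diabetic stimulated libraries. The summed score of the 8 stimulation markers was 0.092 to 4.14 in diabetic unstimulated and 3.17 to 5.00 in diabetic stimulated libraries, and 1.38 to 4.70 in control unstimulated and 2.44 to 4.81 in control stimulated libraries, so stimulated and unstimulated libraries overlapped in both kinds of mice. Ptgs2, the inducible cyclooxygenase, rose after stimulation of diabetic BMDM (1.83 ± 0.365, adjusted p = 0.00552). Control unstimulated replicates 5 and 6 and control stimulated replicate 5 went against their labels at single genes in an earlier analysis of these data. Among the members, the Gbp7 promoter ranked 3654 and 2472 in control unstimulated replicates 5 and 6, stronger than in the other 4, and 8743 in control stimulated replicate 5, the weakest of its group. Whether these 3 libraries carry the right labels cannot be told from the peak lists, and results were therefore also read without them.

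H3K27ac was found at some interferon-stimulated promoters in every library and at others in hardly any. Ifih1, Parp14 and Trim25 were held in all 35 lists. Ifih1 encodes MDA5, a sensor of long double-stranded RNA, Parp14 is a mono-ADP-ribosyltransferase and Trim25 is a ubiquitin ligase that acts on the RNA sensor RIG-I. At the other end 18 of the 59 were held in no list, among them Ifit1, Ifit2, Ifit3, Ifit3b, Isg15, Gbp2, Gbp3, Gbp5, Gbp6 and Acod1. Each of the 59 had an H3K27ac peak in at least 1 list, and 25 were occupied in all 35.

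In H3K4me3 fewer of the genes were held. No member was held in all 35 lists, 8 were occupied in all of them (Isg20, Ifih1, Gbp7, Eif2ak2, Adar, Parp14, Cmpk2 and Trim25), 22 were held in none, and Ifi44, Ifi204 and Acod1 had no H3K4me3 peak in any library. Held members per library ranged from 10 to 30 with a median of 18 in H3K27ac and from 2 to 34 with a median of 9 in H3K4me3. As a share of the list the members were below all protein-coding genes in 30 of 35 H3K27ac libraries and 33 of 35 H3K4me3 libraries. Because each library pools many cells, fewer cells with the mark and less of the mark in each cell cannot be told apart. By occupancy, which counts weak peaks too, they were below all genes in 3 of 35 H3K27ac and 29 of 35 H3K4me3 libraries.

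**Figure D1:**
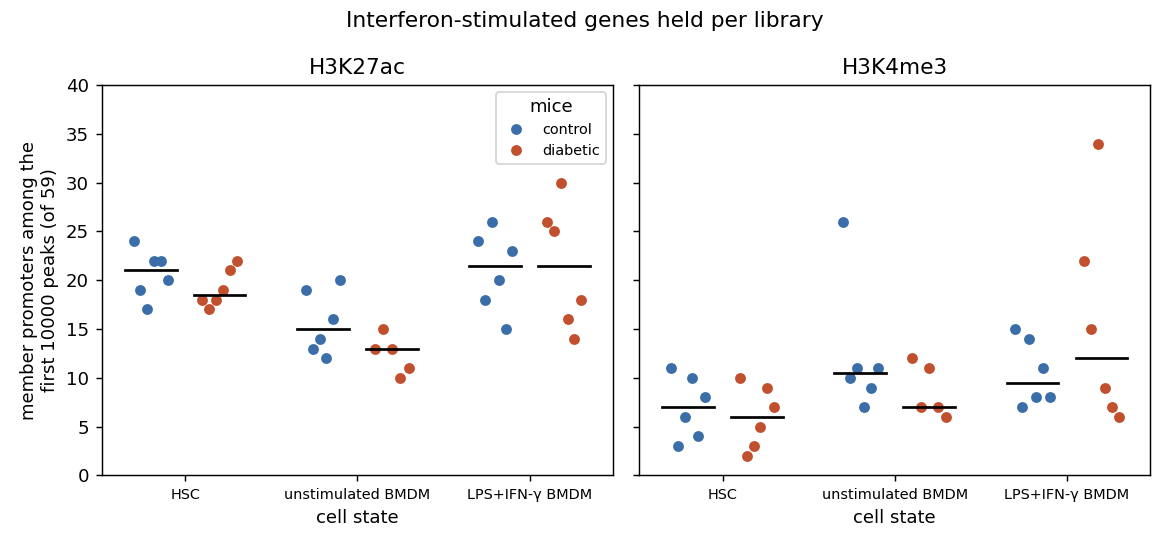
Number of the 59 interferon-stimulated promoters among the first 10000 peaks, 1 point per library, by cell state and by the mice the cells came from, with a bar at the group median, for H3K27ac (left) and H3K4me3 (right). In H3K27ac the diabetic unstimulated libraries sit between 10 and 15, and the diabetic stimulated libraries split into 3 at 25 to 30 and 3 at 14 to 18.

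By cell state and disease, the number of members held by H3K27ac was 17 to 24 (median 21) in control HSC and 17 to 22 (median 18.5) in diabetic HSC. It was 12 to 20 (median 15) in control and 10 to 15 (median 13) in diabetic unstimulated BMDM, and 15 to 26 (median 21.5) in control and 14 to 30 (median 21.5) in diabetic stimulated BMDM. Within the last group replicates 1, 2 and 3 held 26, 25 and 30 members and replicates 4, 5 and 6 held 16, 14 and 18. Replicates 1, 2 and 3 had lists of 90792, 138352 and 142219 peaks and replicates 4, 5 and 6 lists of 67922, 52470 and 96211, and the part of list length in this split was not tested. In H3K4me3 the same replicates held 22, 15 and 34 members against 9, 7 and 6.

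The ubiquitin-like modifier ISG15, the ligase Herc6 that attaches it and the protease Usp18 that removes it had promoters of unequal rank. Isg15 had an H3K27ac peak in 29 of 35 libraries but never among the first 10000. Its best stimulated libraries ranked 13345 in control and 14947 in diabetic BMDM. Herc6 was held in 27 libraries and Usp18 in 9. In H3K4me3, Isg15 had no peak in any of the 12 HSC libraries and a peak in 11 of the 12 stimulated ones, where its best rank was 7883. Across the 3 genes 52.8% of HSC promoters, 21.2% of unstimulated and 27.8% of stimulated BMDM promoters were held by H3K27ac.

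The Ifit family, proteins that bind foreign RNA, had the weakest promoters. None of its 4 genes was held by H3K27ac in any library, and 52.1% of the promoter readings in HSC, 29.5% in unstimulated and 47.9% in stimulated BMDM had any H3K27ac peak. Ifit1 had a peak in 1 of 11 unstimulated libraries, at rank 106927, and in 4 of 12 stimulated ones. Ifit3 had a peak in 8 of 35 libraries. Ifit2 was the family member most often occupied in HSC, with all 12 libraries between ranks 11336 and 102387. Ifit3 and Ifit3b are near-identical copies, so reads could have been split between them or dropped.

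The Oas family includes the enzymes that make the oligoadenylates that switch on RNase L. Over its 7 genes, 17.9% of promoter readings in HSC, 11.7% in unstimulated and 36.9% in stimulated BMDM were held by H3K27ac. Oas2 ranked 19130 to 79056 in the control HSC libraries and 4799 to 20696 in the control unstimulated BMDM, so only the edges of these groups met. In stimulated BMDM it ranked 3587 to 17311 in control and 1730 to 20039 in diabetic cells. H3K4me3 moved with it: Oas2 had no peak in the 6 control HSC libraries and ranked 3871 to 44472 in the 6 control unstimulated libraries. Those unstimulated lists had a median of 161118 peaks, against 49624 in control HSC. Oas1a and Oas1g are close copies of each other and their values are uncertain.

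Among nucleic acid sensors, Ifih1 had the strongest promoter, at a median H3K27ac percentile of 85.3 over 35 libraries, and Ddx58, which encodes RIG-I, the other RNA helicase sensor, was seldom held. Ddx58 ranked 8366 to 21673 in control HSC and 12920 to 91181 in control unstimulated BMDM. Adar, which edits double-stranded RNA, had the strongest H3K4me3 promoter of all members, at a median percentile of 91.0 and held in 34 of 35 lists, but a median of 67.9 by H3K27ac. Zbp1, a sensor of Z-form nucleic acid that can trigger cell death, was held by H3K27ac in stimulated BMDM and in no library of the other cell states. Its best ranks there were 4032 in control and 275 in diabetic cells. Ifi204, a DNA sensor of the pyrin-HIN family, had no H3K27ac peak in any of the 12 HSC libraries and a peak in 6 of 11 unstimulated BMDM.

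The restriction factors and other antiviral effectors were the largest role group, with 15 genes. Bst2, which encodes tetherin, a protein that holds budding virus to the cell, was held by H3K27ac in 32 libraries and Cmpk2, a mitochondrial nucleotide kinase, also in 32. Rsad2, the neighbour of Cmpk2, encodes viperin, which makes a chain-terminating nucleotide, and was held in 16. Mx1, a dynamin-like GTPase, ranked 7193 to 39483 in control unstimulated and 7644 to 29631 in control stimulated BMDM, so the groups overlapped throughout. Ifitm3, which blocks the fusion of virus with the cell, ranked 9195 to 44901 and 16049 to 55711 in the same groups. Ifi44 had an H3K27ac peak in 2 of 35 libraries.

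The guanylate-binding proteins are large GTPases that coat and break open pathogen vacuoles. Gbp7 was held by H3K27ac in 32 of 35 libraries, whereas Gbp2, Gbp3, Gbp5 and Gbp6 were held in none. Gbp2 had a peak in 6 of 6 control HSC libraries, at ranks 22366 to 76279, in 1 of 11 unstimulated BMDM and in 2 of 12 stimulated BMDM. Gbp5 likewise had a peak in all 6 control HSC libraries, at ranks 30012 to 81906, and in no unstimulated BMDM library. The weak H3K27ac peaks of Gbp2 and Gbp5 were thus found in each control HSC library and in few macrophage libraries.

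The immunity-related GTPases act on the same vacuoles and include regulators (Irgm1, Irgm2, Igtp) and effectors (Iigp1, Tgtp1, Tgtp2). Over the 7 genes, 50.0% of promoter readings in HSC, 18.2% in unstimulated and 44.0% in stimulated BMDM were held by H3K27ac. Irgm1 ranked 6698 to 10336 over all 12 HSC libraries and 3228 to 43952 in control unstimulated BMDM. In H3K4me3 Irgm1 was held in 2 libraries of 35, and its best rank was 1472, in control unstimulated replicate 1. Ifi47 had a steady H3K27ac promoter, held in 32 libraries. Igtp and Irgm2 share a promoter window, so 1 peak can count for both, and Ifi47 shares its window with Olfr56. Tgtp1 and Tgtp2 start 71867 bp apart, and their promoter sequences shown above are alike. Whether reads were split between these 2 genes or dropped was not tested, so their separate values are uncertain.

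Of the remaining genes, Parp14 had the strongest H3K27ac promoter, at a median percentile of 93.1, and was held by H3K4me3 in 32 lists. Parp9 and Dtx3l, which form a complex, share 1 window and read alike, with a median H3K27ac percentile of 82.5. Trim30a, a ubiquitin ligase that restrains Toll-like receptor signalling, was held in no H3K27ac library. Sp100, a component of nuclear bodies, ranked 8268 to 15440 in control HSC and 13575 at best in any of the BMDM libraries. Cd274, which encodes the T cell checkpoint ligand PD-L1, was held in 31 H3K27ac libraries, with ranks of 111 at best in control and 67 at best in diabetic stimulated BMDM. Acod1, whose enzyme makes itaconate in activated macrophages, had an H3K27ac peak in 1 of 11 unstimulated and 4 of 12 stimulated libraries, the best of them at rank 50819.

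**Figure D2:**
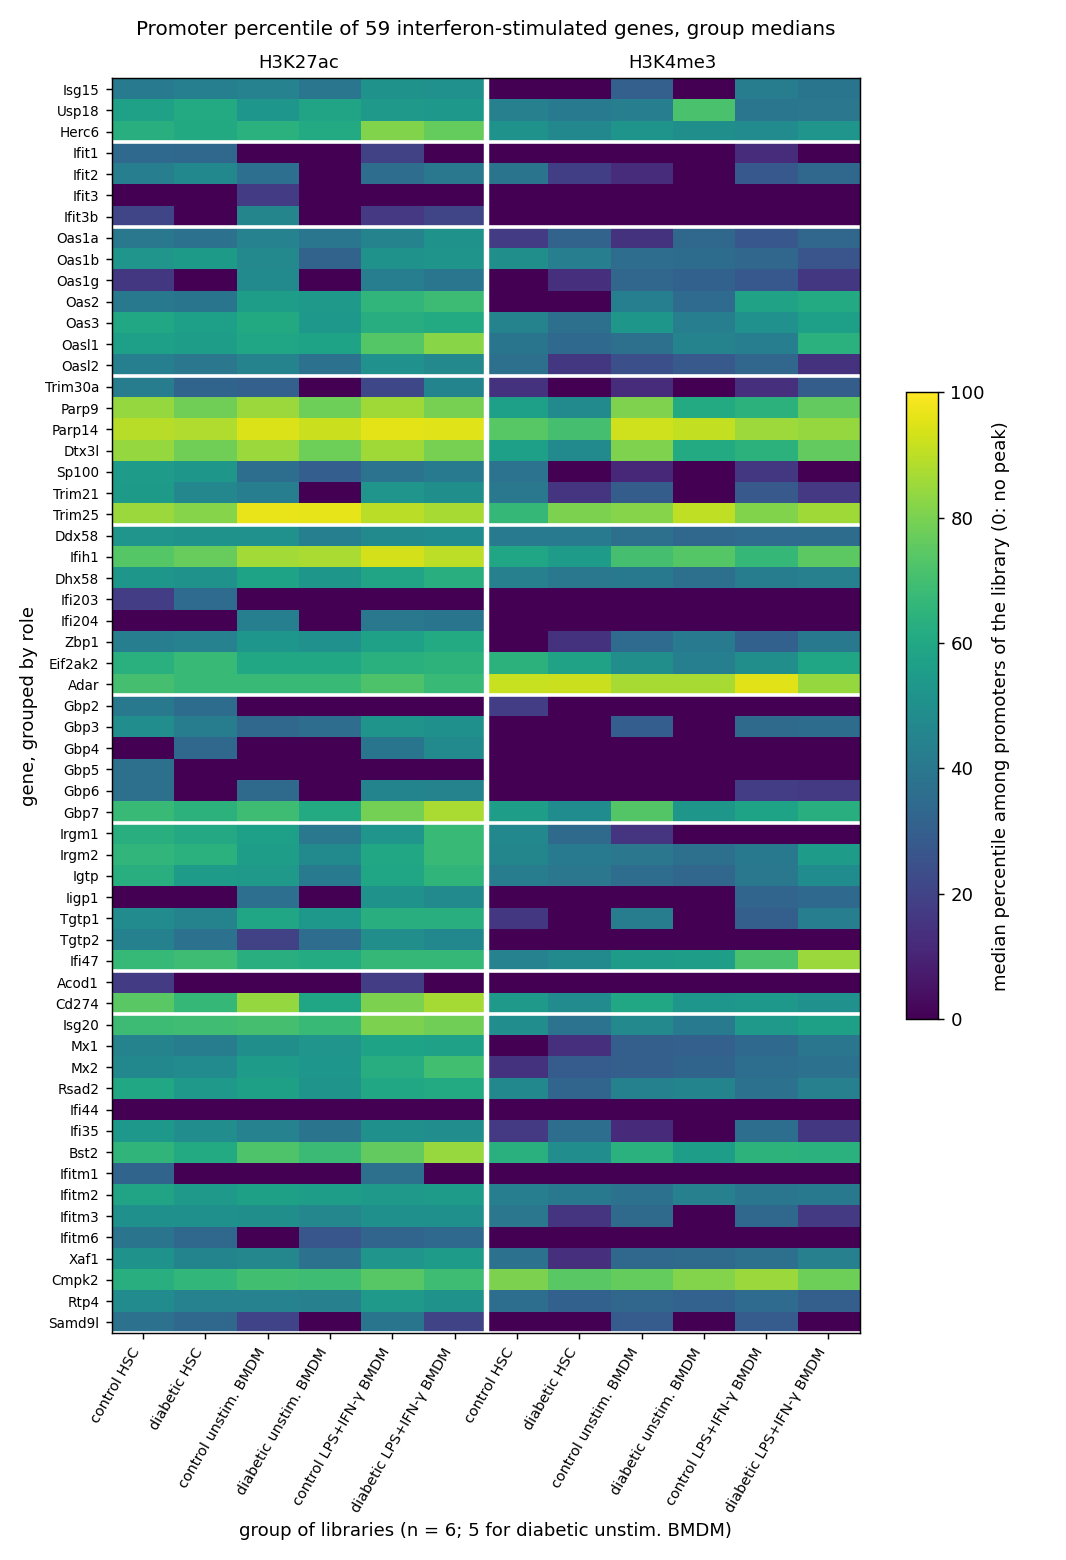
Group median of the promoter percentile (colour, from 0 for no peak to 100) for the 59 genes in rows, ordered by role, and the 6 groups of libraries in columns, for H3K27ac (left) and H3K4me3 (right). Parp14, Trim25, Ifih1, Parp9 and Dtx3l are bright across H3K27ac groups, and Adar and Cmpk2 across H3K4me3 groups, whereas Ifit1, Ifit3, Gbp2, Gbp5 and Ifi44 are at or near 0 in most groups.

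For the tests, a gene was fitted in a mark when its score was over 0 in at least 5 of the 35 libraries, which kept 27 of the 59 members among 10831 genes in H3K27ac and 19 among 12426 in H3K4me3. Mx2 and Oas1b are annotated as polymorphic pseudogenes and were described but not fitted. All 6 groups of a mark entered 1 limma fit, the p-values were adjusted over all genes fitted, and a gene was called at an adjusted p under 0.05. Of the members fitted, Zbp1 in H3K27ac and Oasl1 in H3K4me3 were held in 1 cell state only and had entered through it.

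The first comparison asked how the promoters of these genes respond to LPS+IFN-γ. In BMDM from diabetic mice, H3K27ac rose at 2 of the 27 members fitted and fell at none, where 0.397% of all genes fitted were called higher and 1.37% lower. The 2 were Gbp7 and Oasl1. Gbp7 (ENSMUSG00000040253.15, chr3:142530342-142550149, plus strand) is a guanylate-binding protein, and Oasl1 (ENSMUSG00000041827.15, chr5:114923240-114937915, plus strand) is an Oas-like protein that in mice restrains translation of the interferon regulator Irf7.

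Gbp7 ranked 9005, 9405, 6274, 23102 and 10191 in the 5 diabetic unstimulated libraries and 890, 136, 1074, 7473, 4437 and 5828 in the 6 diabetic stimulated ones. All stimulated libraries but replicate 4 were stronger than every unstimulated library. The score rose by 2.36 ± 0.618 (SE), from a mean of 0.182 to 2.55, with an adjusted p of 0.0392 from limma. The fold enrichment of its best peak over input, as the peak caller gave it, had a median of 7.33 without and 10.3 with stimulation.

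Oasl1 ranked 12090, 8649, 10313, 15173 and 12940 without stimulation and 1029, 634, 625, 6828, 12706 and 8640 with it. The stimulated replicates 1, 2 and 3 were the strongest by far, replicate 5 was weaker than 3 of the 5 unstimulated libraries, and replicate 6, at 8640, was level with the strongest of them, at 8649. The score rose by 1.96 ± 0.532, from 0.0419 to 2.00, with an adjusted p of 0.0463, and the median fold enrichment was 5.36 without and 8.75 with stimulation. Both calls sat close to the threshold: leaving out 1 library at a time gave a Gbp7 difference of 1.63 to 2.79 and lost its call in 7 of 11 cases, and an Oasl1 difference of 1.56 to 2.36 with the call lost in 8 of 11. No member remained called without diabetic stimulated replicate 1, 2 or 3 or without diabetic unstimulated replicate 1, 2, 5 or 6, whereas 4 were called without stimulated replicate 5 and 5 without replicate 6. With list length as a covariate the Gbp7 difference was 2.39 and remained called, but ordering peaks by fold, testing without the filter and weighting the libraries each called 0 members here.

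Igtp, the next member by p, ranked 61479, 15436, 31632 and 29293 in 4 diabetic unstimulated libraries and had no peak in replicate 4, against 5671, 5392, 3637, 39162, 14159 and 10533 after stimulation. Its score difference of 0.528 ± 0.163 did not pass (adjusted p = 0.0809). Of the 27 members 13 had an unadjusted p under 0.05, against 1847 of the 10831 genes fitted, and 25 had a difference above 0, with a median of 0.573 against −0.0205 over all genes fitted.

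**Figure D3:**
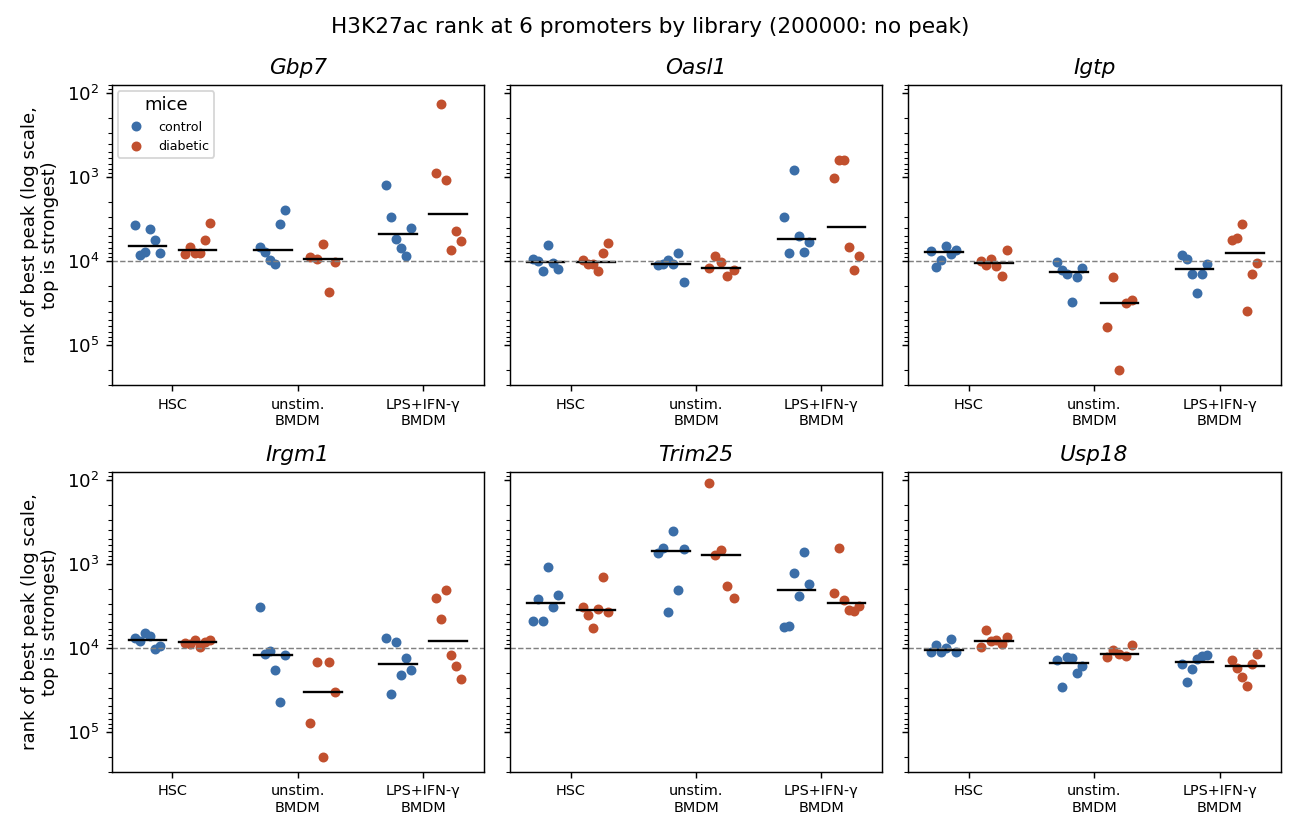
H3K27ac rank of the best promoter peak in each library (log axis, strong peaks at low numbers and at the top, libraries with no peak drawn near the bottom, dashed line at rank 10000) for Gbp7, Oasl1, Igtp, Irgm1, Trim25 and Usp18 across the 6 groups. For Gbp7 and Oasl1 diabetic stimulated replicates 1, 2 and 3 lie at ranks 136 to 1074, and for Usp18 all 6 diabetic HSC libraries lie between 6199 and 9850.

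The score sees only promoters that reach the first 10000 peaks, so the percentile, which ranks weak promoters as well, was fitted too. It tested 56 members among 16981 genes in H3K27ac and called 6 higher and none lower after stimulation of diabetic BMDM, where 0.754% of all genes were higher and 1.1% lower. These were Iigp1, Igtp, Gbp4, Irgm1, Gbp7 and Irgm2, thus 4 immunity-related GTPases and 2 guanylate-binding proteins. Igtp and Irgm2 read the same window in part and are not separate evidence. Oasl1 was not called on this scale. Leaving out single libraries, weighting the libraries, a replicate block and list length as a covariate were run on the score only. The percentile calls, here and below, were not put to those checks.

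Iigp1, an effector GTPase, had no H3K27ac peak in any of the 5 diabetic unstimulated libraries and ranked 19765, 16484, 5511, 34294, 45089 and 32351 in the 6 stimulated ones, so the groups did not overlap. Its percentile rose by 52.1 ± 10.6 (adjusted p = 0.00996). Gbp4, which shares its window with Gbp8 and Gbp9, had a peak in 1 of the 5 unstimulated libraries, at rank 80420, and in all 6 stimulated ones, at ranks 8305 to 66033. Its percentile rose by 42.5 ± 10.2 (adjusted p = 0.0241). Both rises include the step from no peak to a peak at any rank.

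Irgm1 ranked 79442, 14700, 14820 and 33698 with no peak in replicate 4 before stimulation, and 2584, 4583, 2055, 12155, 16674 and 23255 after it. The percentile rose by 32.2 ± 7.86 (adjusted p = 0.0266), but stimulated replicates 5 and 6 overlapped the unstimulated libraries. Igtp rose by 29.6 ± 6.63 (adjusted p = 0.0176), Irgm2 by 25.4 ± 6.83 (adjusted p = 0.0421) and Gbp7 by 24.7 ± 6.27 (adjusted p = 0.0332). Igtp and Irgm2 carry the paired GAS and ISRE cores shown above, and Tgtp1 and Tgtp2, which carry them too, were not called. Tgtp1 ranked higher in all 6 stimulated than in all 5 unstimulated diabetic libraries by percentile, and Tgtp2 did not. How many of all genes were apart in this way was not counted. Irgm1 and Gbp7 were called without that pair, and Iigp1 and Gbp4 had no matched promoter window. Whether the pair bears on the response was not tested.

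In BMDM from control mice no member was called by limma in H3K27ac after stimulation, and 0% of all genes fitted were called in either direction. At an unadjusted p under 0.05 there were 3 members, which were Oasl1 (score difference 1.23 ± 0.507, adjusted p = 0.858), Herc6 (1.54 ± 0.738, adjusted p = 0.871) and Isg20, an exonuclease (0.99 ± 0.479, adjusted p = 0.873). Oasl1 ranked 11053, 10810, 9677, 11003, 8025 and 17739 without stimulation and 2991, 8127, 835, 4980, 7748 and 5974 with it. Only unstimulated replicate 5, at 8025, was stronger than the weakest stimulated library, at 8127. Gbp7 ranked 6818, 7851, 9840, 10826, 3654 and 2472 without and 1230, 2986, 5419, 6993, 8743 and 4055 with stimulation, so its groups overlapped, with unstimulated replicates 5 and 6 among the strong ones. Without those libraries and stimulated replicate 5, no member was called by score, where 0.417% of all genes were higher and 0.834% lower, and Tgtp2 was called higher by percentile, where 0.189% were higher and 0.272% lower. These libraries had been set apart because they went against their labels at single genes. Calls made without them are therefore not independent support for a response. With all libraries 0% of genes were called by either scale.

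Whether the response differed between diabetic and control BMDM was tested as the difference of the differences. No member and 0% of all genes were called in H3K27ac, and 3 members had an unadjusted p under 0.05. Irgm1 differed by 1.06 ± 0.402 on the score scale (adjusted p = 0.775), Gbp7 by 1.82 ± 0.854 (adjusted p = 0.805) and Igtp by 0.473 ± 0.225 (adjusted p = 0.805). A response called in diabetic and not in control BMDM is therefore not shown to differ between them.

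Over all 59 members, as a description with no test, the mean H3K27ac percentile was higher after stimulation of diabetic BMDM for 54 members, lower for 3 and equal for 2, with a median difference of 15.1. Among all protein-coding genes 7837 were higher and 9358 lower. In control BMDM 48 were higher and 11 lower, with a median difference of 5.60, or 8.11 without the 3 control libraries named above, against 8770 of all genes higher and 8667 lower. Because those libraries were set apart for going against their labels, the larger value is not separate support. The members' median group mean was 36.4 in diabetic unstimulated and 46.4 in control unstimulated BMDM, and 52.5 and 53.1 after stimulation. The larger diabetic difference thus went with lower unstimulated values, while the stimulated values were close.

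**Figure D4:**
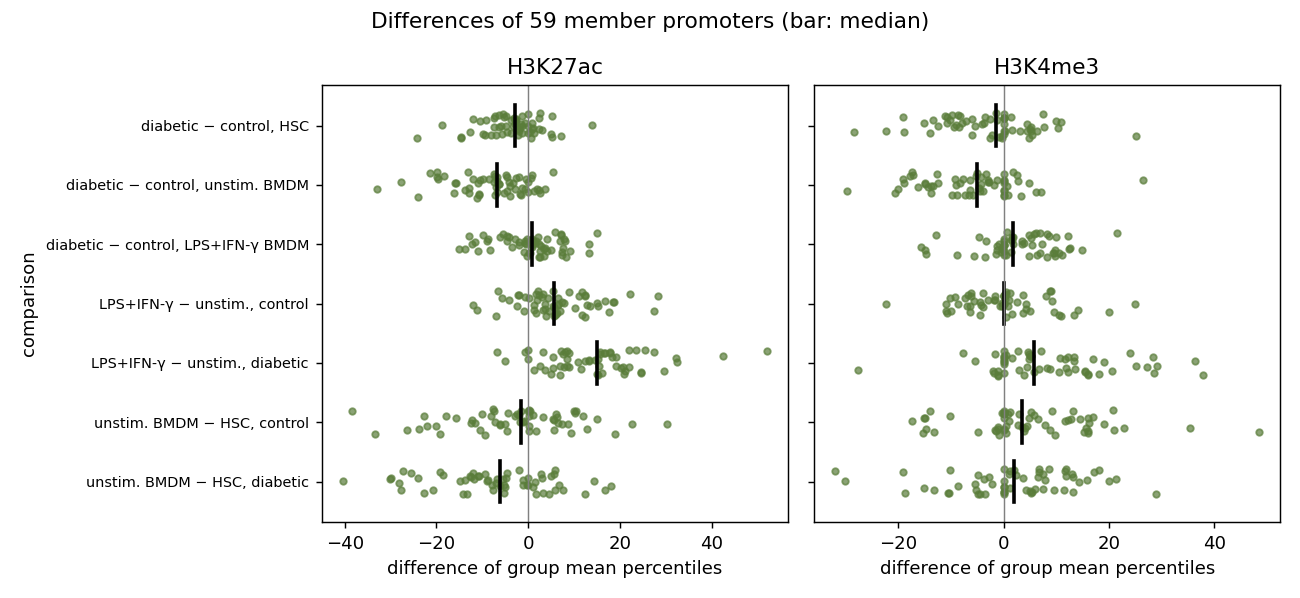
Difference of group mean promoter percentiles for each of the 59 genes (points) with the median (bar), for 7 comparisons in H3K27ac (left) and H3K4me3 (right). The H3K27ac points shift furthest to the right for stimulated against unstimulated BMDM from diabetic mice, with a median of 15.1, and to the left for diabetic against control unstimulated BMDM, with a median of −6.82.

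The second comparison followed the promoters from HSC to unstimulated BMDM. In diabetic mice H3K27ac rose at 1 member and fell at 2 of the 27 fitted, where 5.5% of all genes were higher and 8.07% lower, so the members' shares were near the background. The riser was Trim25 (ENSMUSG00000000275.16, chr11:88999376-89020293, plus strand) and the fallers were Usp18 (ENSMUSG00000030107.10, chr6:121245906-121270917, plus strand) and Eif2ak2 (ENSMUSG00000024079.4, chr17:78852564-78882573, minus strand), which encodes PKR, a kinase that stops translation when it meets double-stranded RNA.

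Trim25 ranked 3244, 4106, 5748, 3471, 1433 and 3705 in diabetic HSC and 110, 777, 685, 1842 and 2551 in diabetic unstimulated BMDM. HSC replicate 5 overlapped the macrophage libraries and the other HSC libraries did not. The score rose by 2.12 ± 0.659, from 1.58 to 3.69 (adjusted p = 0.0267). The call was lost without diabetic unstimulated replicate 1 or 4 or HSC replicate 3, with a difference of 1.41 to 2.55 over all libraries left out.

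Usp18 ranked 9850, 6199, 8383, 8162, 9091 and 7359 in diabetic HSC, so it was held in every library, and 12975, 10618, 11733, 12472 and 9317 in diabetic unstimulated BMDM, where only replicate 6 held it. The score fell by 0.286 ± 0.0762 (adjusted p = 0.00977) and stayed called whichever library was left out, but it was not called by percentile. The diabetic HSC libraries alone were enough to meet the filter, so the group where Usp18 was strongest could bring it into the fit. Leaving out single libraries did not test that entry. Usp18 was also called lower when genes were tested without the filter. Eif2ak2 ranked 7198, 6938, 6746, 4853, 6626 and 5640 in HSC and 16624, 9770, 10069, 9659 and 10412 in BMDM, with no overlap. Its score fell by 0.655 ± 0.211 (adjusted p = 0.0324), and 6 of 11 libraries left out singly, the percentile and the order by fold each ended the call. With peaks ordered by fold none of the 3 genes was called. Usp18 and Eif2ak2 were thus both among the first 10000 peaks in every diabetic HSC library and beyond or just inside that rank in diabetic unstimulated BMDM.

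In control mice no member was called between HSC and unstimulated BMDM in H3K27ac by limma, where 4.63% of all genes were higher and 9.2% lower, and 3 members had an unadjusted p under 0.05. Irgm2 had a score difference of −0.49 ± 0.183 (adjusted p = 0.0688), Ifih1 of 1.66 ± 0.639 (adjusted p = 0.0772) and Trim25 had mean scores of 3.32 in BMDM and 1.82 in HSC (SE of the difference 0.629, adjusted p = 0.106). Trim25 ranked 1092 to 4792 in control HSC and 407 to 3786 in control unstimulated BMDM, thus in the direction seen in diabetic mice but with overlap. Whether the change from HSC to BMDM differed between control and diabetic mice was not tested.

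By percentile, 1 member rose and 2 fell from control HSC to control unstimulated BMDM, where 6.7% of all genes rose and 6.2% fell. Ifi204 rose by 30.4 ± 9.73 (adjusted p = 0.0326), Gbp5 fell by 38.4 ± 8.71 (adjusted p = 0.0023) and Gbp2 fell by 33.4 ± 9.21 (adjusted p = 0.0120). Without the 3 control libraries named above Gbp2 was called in neither control nor diabetic mice, and Tgtp2 was called lower in control mice. In diabetic mice Trim25 rose and Gbp2, Ifi35, Ifit2, Igtp, Irgm1 and Irgm2 fell, where 7.75% rose and 6.05% fell. Ifit2 had the largest of these falls, 40.4 ± 9.59 (adjusted p = 0.00349), from 6 of 6 HSC libraries with a peak at ranks 11336 to 54745 to 1 of 5 BMDM libraries at 84707. Irgm1 fell from a mean percentile of 60.3 to 36.4 (SE 7.86, adjusted p = 0.0358), and its ranks of 8050 to 9676 in diabetic HSC were stronger than any in diabetic unstimulated BMDM. Igtp fell by 20.8 ± 6.63 (adjusted p = 0.0309) and Irgm2 by 22.7 ± 6.83 (adjusted p = 0.0214). The rises of these 3 genes after stimulation, given above, were measured against the same 5 diabetic unstimulated libraries and are not independent of these falls.

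The third comparison asked whether these promoters differ with diabetes in a given cell state. In H3K27ac limma on the score called no member and 0% of all genes in HSC, in unstimulated BMDM or in stimulated BMDM. At an unadjusted p under 0.05 there were 1, 0 and 4 members of 27, against 260, 616 and 455 of the 10831 genes fitted. In HSC the smallest p was that of Usp18, whose score was 0.307 in diabetic and 0.0749 in control cells, a difference of 0.232 ± 0.0727 with an adjusted p of 1.00. Its 6 diabetic libraries ranked 6199 to 9850 and its 6 control libraries 7901 to 11297. Diabetic and control HSC therefore overlapped at this gene. Igtp (−0.202 ± 0.155) and Eif2ak2 (0.250 ± 0.201) came next, each with an adjusted p of 1.00.

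In unstimulated BMDM the smallest p values were those of Tgtp1 (−0.311 ± 0.176, adjusted p = 0.928), Ifih1 (−1.11 ± 0.670, adjusted p = 0.949) and Ifitm2 (−0.433 ± 0.281, adjusted p = 0.969). In stimulated BMDM they were those of Igtp (0.473 ± 0.155, adjusted p = 0.956), Irgm1 (0.792 ± 0.278, adjusted p = 1.00) and Irgm2 (0.414 ± 0.183, adjusted p = 1.00). Irgm1 ranked 7726, 35130, 8487, 21031, 13263 and 18344 in control stimulated libraries, so it was held in 2 of 6, and in 3 of 6 diabetic ones. Fitted by percentile, no member was called either, with 0.00589% of all genes called lower in HSC and 0% in both kinds of BMDM. In HSC, unstimulated and stimulated BMDM 1, 9 and 0 of the 56 members had an unadjusted p under 0.05. Of the 16981 genes 379, 930 and 879 did. The counts at an unadjusted p in BMDM thus depended on the scale. By mean percentile over all 59 members, 16 were higher and 41 lower in diabetic than in control HSC (median −2.83), 8 higher and 49 lower in unstimulated BMDM (median −6.82), and 34 higher and 25 lower in stimulated BMDM (median 0.809, and −0.639 without the 3 control libraries named above). The last of these medians thus changed sign without those libraries. Among all genes 7842 were higher and 9472 lower in HSC, 8635 and 8692 in unstimulated BMDM, and 7669 and 9620 in stimulated BMDM.

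In H3K4me3 no member was called in any of the 8 comparisons. The background was 0% in 7 of them, and from control HSC to control unstimulated BMDM it was 0.185% higher and 0.805% lower. At an unadjusted p under 0.05 limma gave 0 members for diabetes in HSC, 0 in unstimulated BMDM and 2 in stimulated BMDM, 0 and 4 for stimulation in control and diabetic BMDM, 1 and 0 from HSC to BMDM in control and diabetic mice and 2 for the difference of responses. Parp14 had the smallest p from control HSC to BMDM, with a score difference of 1.93 ± 0.793 (adjusted p = 0.186). For stimulation of diabetic BMDM the smallest p values were those of Oas2 (0.967 ± 0.329, adjusted p = 0.559), Ifi47 (1.26 ± 0.547, adjusted p = 0.671) and Isg20 (1.20 ± 0.555, adjusted p = 0.700).

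For stimulation of control BMDM the score difference was −0.754 ± 0.405 for Rsad2, 0.654 ± 0.355 for Oasl1 and −0.873 ± 0.482 for Herc6, all at an adjusted p of 1.00. Rsad2 had ranked 388 in control unstimulated replicate 1, the library that held 26 members, and 16098 to 123692 in the other 5, so its direction rested on that library. For diabetes in unstimulated BMDM the differences were −0.703 ± 0.381 for Bst2, −0.781 ± 0.424 for Rsad2 and −0.869 ± 0.505 for Herc6, again at an adjusted p of 1.00 and measured against the same control libraries. In stimulated BMDM they were 1.38 ± 0.529 for Isg20 (adjusted p = 0.649), 0.749 ± 0.351 for Oas3 (0.742) and 0.515 ± 0.314 for Oas2 (0.845). In HSC the largest of the 3 was 0.679 ± 0.922 for Trim25, and Bst2 and Parp14 differed by −0.364 ± 0.363 and 0.534 ± 0.793, at an adjusted p of 1.00.

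From HSC to unstimulated BMDM, Herc6 (0.956 ± 0.482, adjusted p = 0.275) and Cd274 (0.804 ± 0.446, adjusted p = 0.324) followed Parp14 in control mice. In diabetic mice Ifih1 (1.09 ± 0.695, adjusted p = 0.536), Eif2ak2 (−0.362 ± 0.241, adjusted p = 0.554) and Trim25 (1.35 ± 0.967, adjusted p = 0.594) had the smallest p values. The difference between the responses of diabetic and control BMDM was 1.28 ± 0.508 for Oas3, 1.57 ± 0.698 for Herc6 and 2.03 ± 1.11 for Gbp7, each with an adjusted p of 0.906. Of the 3 genes called in H3K27ac for this step in diabetic mice, Trim25 and Eif2ak2 had the same sign in H3K4me3, without passing, and Usp18 had the opposite sign, with a mean H3K4me3 percentile of 38.5 in diabetic HSC and 67.5 in diabetic unstimulated BMDM (adjusted p = 0.0856).

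By mean H3K4me3 percentile over all 59 members, as a description, 43 were higher, 9 lower and 7 equal after stimulation of diabetic BMDM, with a median difference of 5.79, against 8739 of all genes higher and 8786 lower. After stimulation of control BMDM 26 were higher, 28 lower and 5 equal, with a median of 0, against 8621 and 9434 of all genes. Diabetic unstimulated BMDM were higher than control for 12 members and lower for 41 (median −5.10), against 7935 and 9902 of all genes, and diabetic stimulated BMDM higher for 36 and lower for 16 (median 1.69), against 8320 and 9642. From HSC to unstimulated BMDM 37 were higher and 15 lower in control mice (median 3.50), and 33 higher and 19 lower in diabetic mice (median 1.89). All genes leaned the same way in H3K4me3, with 10459 higher and 7488 lower in control and 10099 higher and 7420 lower in diabetic mice. The H3K27ac medians of the members for that step were −1.65 and −6.19, where 8225 of all genes were higher and 9467 lower in control and 8539 higher and 8855 lower in diabetic mice.

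Oas2 had no H3K4me3 peak among the first 10000 in any of the 5 diabetic unstimulated libraries and ranked 3387, 2652 and 1998 in stimulated replicates 1, 2 and 3, against 38243 and 31292 in replicates 4 and 6 and no peak in replicate 5. The H3K4me3 difference at this gene was thus carried by 3 of the 6 stimulated libraries. By percentile, Oas2 (48.5 ± 10.8, adjusted p = 0.00715) and Zbp1 (35.4 ± 10.9, adjusted p = 0.0434) were called higher in control unstimulated BMDM than in control HSC, among 47 members and 17255 genes fitted, where 4.27% were higher and 1.29% lower. Both genes had hardly any H3K4me3 peak in control HSC, with Zbp1 at rank 96360 in 1 of the 6 libraries. The control HSC lists were shorter, with a median of 49624 peaks against 161118 in control unstimulated BMDM. A peak at a late rank has no place in a short list, and the part of list length in these calls was not tested. In control unstimulated BMDM Zbp1 ranked 3532 in replicate 1 and 40489 to 153814 in the other 5.

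Usp18 stood out in H3K4me3 once peaks down to rank 20000 were allowed to count. It ranked 2586, 6351, 6309, 11127 and 13084 in the 5 diabetic unstimulated libraries, 13249 to 93017 in the 6 control unstimulated libraries and 26126 to 40937 in the 6 diabetic stimulated libraries. The diabetic unstimulated libraries overlapped neither of the other groups. On that scale Usp18 was the gene called higher in diabetic than in control unstimulated BMDM (adjusted p = 0.00676) and the gene called lower after stimulation of diabetic BMDM (adjusted p = 0.00180), each time the single call among 14196 genes (0.00704%), with 0% called the other way. The 5 diabetic unstimulated libraries alone were enough to meet the filter of 5, so the group where Usp18 was strongest could bring it into the fit. All 6 diabetic stimulated libraries lay beyond rank 20000 and scored 0. Both calls used the same diabetic unstimulated libraries and are not independent of that entry. With the first 10000 peaks Usp18 was held in too few libraries to be fitted, and the percentile fit did not call it. Its H3K27ac promoter in the same cells ranked 9317 to 12975 in diabetic and 12767 to 29719 in control unstimulated BMDM, a difference that limma did not call.

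The genes that carry the interferon signal to these promoters were read from a list of 24, comprising interferon receptors, kinases, transcription factors, suppressors and adaptors. In H3K27ac 21 of them were fitted, and 2 rose and none fell from control HSC to control unstimulated BMDM. These were Ifngr2, a chain of the IFN-γ receptor (3.45 ± 1.10, adjusted p = 0.0317), and Irf1, a transcription factor induced by IFN-γ (1.66 ± 0.549, adjusted p = 0.0385). None was called in the other 7 H3K27ac comparisons, and none of the 20 fitted in H3K4me3. Irf7 had a median H3K27ac rank of 14135 in control unstimulated and 8838 in control stimulated BMDM. Socs1, a suppressor of the same pathway, had medians of 2410 and 521 in the control groups and 4657 and 816 in the diabetic groups. Ifnb1, the gene of interferon-β, had a group median of no peak in all 6 groups.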

How the data were processed

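Chromatin from bone marrow progenitors and macrophages was sequenced as 50 bp single reads with antibodies to H3K27ac and H3K4me3. Per the labels and the submitters' processing notes, which name Trim Galore 0.3.3, cutadapt 1.8, FastQC 0.11.3, Bowtie2 2.2.6, Picard 2.19.2 and 2.18.14, bedtools 2.19.1 and MACS2 2.2.7.1 with GRCm38 and mm10, the authors called peaks per library; 36 input samples were not analysed here. The deposited lists give a score, a fold enrichment and the −log10 p and −log10 q of each peak, as the authors' peak caller wrote them; summits of 1 interval were merged. Read totals are not given in the lists, so counting error could not be computed, and the number of libraries limits the precision.

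Ranks, scores and percentiles (defined in the report) were computed with Python 3.11.15 and pandas 2.3.3 on 21938 protein-coding genes with 93513 start sites from GENCODE M21, and 2 pseudogene members. Differences were tested with limma 3.58.1 in R 4.3.3 (lmFit, eBayes with trend, 6 group means per mark, two-sided, Benjamini-Hochberg over all genes fitted), for 8 comparisons per mark, and the code was tested on simulated data. Named genes were the called members, the 3 with the smallest p in each comparison and a fixed panel over all roles; other members were named after their values were seen. The members and lists were chosen with earlier results of these data known. Alternatives were fold order, the first 20000 peaks, percentiles, a 500 bp window, a 200 bp overlap, a −log10 q of at least 5, no filter, array weights, list length as a covariate, a replicate block and leaving out libraries.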

Additional observations from a re-analysis of the deposited data

Results flagged for a closer look

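Of 51 sets of values from 1 group that were looked at, 9 had a highest library far from the others by Dixon's criterion. For normally distributed values it marks about 1 in 20 sets by chance. Scores with a floor at 0 and tied counts are not such values. Where all other libraries tie, any single different value is marked, so 1 in 20 is no yardstick here. In H3K4me3, control unstimulated replicate 1 held 26 member promoters against 7 to 11 in the other 5 libraries. In H3K27ac, diabetic HSC replicate 2 had 53 occupied members against 47 in each of the others. Among single genes by H3K27ac score, Gbp7 was 0.673 in diabetic unstimulated replicate 4 against 0 to 0.151, and Trim25 was 3.96 in diabetic stimulated replicate 2 against 1.45 to 2.15. Oasl1 was 0.617 in control HSC replicate 4 against 0 to 0.0673, 0.317 in control unstimulated replicate 5 against 0 to 0.0474, and 0.209 in diabetic unstimulated replicate 2 against 0 in the other 4. Usp18 was 0.340 in control HSC replicate 5 against 0 to 0.109, and 0.102 in diabetic unstimulated replicate 6 against 0 in the others.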

How the results depend on the processing

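None of the differences called by score reversed. The median percentile difference of the members between diabetic and control stimulated BMDM, which had no test, went from 0.809 to −0.639 without the 3 control libraries. Members called in H3K27ac after stimulation of diabetic BMDM numbered 2, and 0 with fold order, with no filter, with array weights and with a replicate block, 6 by percentile and 7 by percentile without the 3 control libraries named in the report, an alternative chosen after seeing the data; leaving out 1 library gave 0 to 5. In control BMDM that last alternative called 1. From control HSC to unstimulated BMDM the count was 0, and 4 with the first 20000 peaks (12.0% of all genes called lower), 3 by percentile, 3 by percentile without the 3 libraries, where Tgtp2 took the place of Gbp2, 1 with array weights, 1 with the replicate block and 0 to 1 with libraries left out. In diabetic mice it was 3, and 9 with the first 20000 peaks (5.73% of all genes called higher and 11.4% lower), 0 with fold order, 7 by percentile, 6 by percentile without the 3 libraries and 1 to 3 with libraries left out. In H3K4me3 the first 20000 peaks called 1 member for diabetes in unstimulated BMDM, for stimulation of diabetic BMDM and from HSC to BMDM in diabetic mice, and from control HSC to BMDM the percentile called 2, or 1 without the 3 libraries. With the first 20000 peaks the median number of members held was 32 in H3K27ac and 16 in H3K4me3. The causes were not tested. Same-numbered libraries did not all deviate together in any comparison (at most 3 of 6 or 5 pairs over a correlation of 0.1). In H3K27ac of stimulated against unstimulated diabetic BMDM, where the replicate block ends both calls, the 5 pairs had correlations of 0.0532 to 0.350, 3 of them over 0.1, and 3 of 5 libraries correlated best with their own number, a hint of shared origin that the labels do not state. Depth is unknown, and a member with no peak may have signal below the caller's limit.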
